A study of Mus musculus with 6 samples.

Results

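The genes described here are 50 genes of the neuronal microtubule and actin cytoskeleton, chosen by name: tubulins, microtubule-associated proteins, stathmins, motor proteins, actin regulators, growth cone membrane proteins and ankyrins. Each of the 50 was found among the 36291 gene rows of the count table, 4 of them under older symbols (Map1a, Map1b, Map2 and Map4 stand there as Mtap1a, Mtap1b, Mtap2 and Mtap4). The libraries, 3 wild-type (WT) and 3 knockout (KO), hold poly-A RNA of sorted eGFP-positive cells. The cells came from E14.5 embryos of Swiss mice, of which the telencephalon was taken. The series is titled for Sip1, now called Zeb2, a zinc finger transcription factor, and asks about its part in the migration of cortical interneurons. The sort marked cells in which an Nkx2-1-iCre driver had acted in both genotypes, so the material holds cells with a history of Nkx2-1 expression and not the whole telencephalon. The KO is a Sip1|Nkx2-1 knockout by the design text of the series, read here as loss of Sip1 in cells where Nkx2-1-iCre acted, and the labels give neither the Sip1 or reporter alleles of either genotype nor whether a library came from 1 embryo or several. A number (K77, K79 or K80) stands on each library, the same 3 numbers recur in both genotypes, and the labels leave their meaning unsaid. In each title a second number follows it, which differs between the WT and the KO library of a K number and is not explained either.

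Microtubules are polymers of alpha- and beta-tubulin that carry motor proteins and link the nucleus of a migrating neuron to its leading process. Doublecortin and other microtubule-associated proteins bundle and stabilise them, stathmins favour their disassembly, and kinesins and dynein carry cargo toward opposite ends. Actin filaments drive the growth cone at the tip of that process, where cofilin severs filaments, profilin feeds monomers to growing ends, and kinases of the Pak and Limk families restrain cofilin. Interneurons born in the medial ganglionic eminence (MGE) depend on both systems on their way to the cortex.

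Some of the tubulin members are close copies of each other, and the reads were 36 bases long, so the sequences shared between copies come first. In the GENCODE M21 transcripts, the coding sequences of Tuba1a and Tuba1b were 98.3% identical, with a longest identical run of 281 bases, and those of Tubb2a and Tubb2b were 96.5% identical, with a run of 551 bases. The last 60 coding bases of the beta pair (bases 1279 to 1338, counted from the first base of the start codon) show how little separates close copies, with the bases that differ in capitals:
Tubb2a: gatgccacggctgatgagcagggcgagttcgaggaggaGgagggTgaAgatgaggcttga
Tubb2b: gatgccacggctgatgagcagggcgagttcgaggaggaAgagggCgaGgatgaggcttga
The pair differed at 3 of these 60 bases, and a 36-base read from within an identical run cannot be given to one gene of a pair by its sequence.

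Of all 36-base windows in its transcripts, Tuba1a shared 77.7% with transcripts of at least 1 other gene on either strand. The value was 77.8% for Tuba1b, 54.5% for Tuba1c, 54.0% for Tubb2a and 41.2% for Tubb2b. Tubb5 (2.27%) and Tubb3 (1.77%) stood apart from their relatives in this respect. Outside the tubulins the highest values were those of Stmn1 (21.4%, mostly with Gm11223) and Cfl1 (21.4%), and 42 of the 50 members lay at or under 10%, with a median of 0.475% against 1.85% over the 27132 genes of the count table found in that annotation. The sources used here do not say how the authors' counting treated reads with more than 1 place, and the levels of the alpha-tubulins, Tubb2a, Tubb2b, Stmn1, Cfl1 and Tubg1 (17.0%) are therefore uncertain.

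Depth ran from 8323531 to 11069437 gene counts per library, and the members took 3.31 to 3.51% of them, with no separation between the genotypes. Levels are given as CPM, each gene's counts scaled to a fixed library total, in the order K77, K79, K80, with means ± SD over n = 3 libraries per genotype. Zeb2 stood at 705, 514 and 768 CPM in WT and 343, 272 and 307 CPM in KO, a log2 fold change (KO over WT throughout) of -1.11 (SE 0.138, edgeR adjusted p = 0.00116). 1 library stood apart by sex: WT K79 had 26109 counts of Xist, the RNA of the inactive X chromosome, and 6 counts over 4 Y-linked genes, while the other 5 libraries had 13 to 28 counts of Xist and 2651 to 3745 over the Y-linked genes. All KO libraries thus carried Y-linked RNA and 2 of the 3 WT libraries did, so results are given without WT K79 where they rest on it. Which exons were deleted is unsaid in the labels, so Zeb2 reads check them by direction and not by absence. Defining genes of the MGE lineage were abundant in each library, their 9 genes summing to 5000 to 6080 CPM in WT and 5400 to 6350 CPM in KO. Within that list Nkx2-1 (0.70) and Gad2 (0.56) were called higher and Erbb4 (-0.87) and Dlx5 (-0.45) lower. Of all tested genes 3.64% were called higher and 2.62% lower. The part of these lineage genes in the members' values was not tested. Genes of cortical glutamatergic neurons were also present, at 199 to 428 CPM in WT and 216 to 287 CPM in KO over 8 genes. Blood vessel genes (17.4 to 33.9 CPM in WT and 19.8 to 31.6 CPM in KO over 7 genes), red blood cell genes (5.03 to 11.3 and 2.63 to 7.58 CPM over 6 genes, with Hba-a1 at 0 in each library) and microglial genes (2.88 to 3.71 and 2.81 to 3.37 CPM over 6 genes) were near the floor.

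Most of the cytoskeleton was expressed at much the same level in both genotypes. Of the 50 members 49 passed the filter on low counts, Tuba1c being the exception, and 5 of the 49 were called at an adjusted p under 0.05 by edgeR, which is 10.2% against 6.27% of all 13835 tested genes. The growth cone gene Gap43, the ankyrin gene Ank3 and the cofilin-restraining kinase gene Limk1 rose (6.12% of the members tested against 3.64% of all tested genes), and the alpha-tubulin gene Tuba1a and the profilin gene Pfn2 fell (4.08% against 2.62%). Among tested genes with a mean of at least 100 CPM, the range in which 43 of the members lie, 9.27% were called, close to the members' share. This fit leaves out the K number, although libraries sharing a number deviated together, as described under the processing. With the K number as a block, where 10.6% of all tested genes were called, 5 members rose (6.13% of all tested genes did) and 3 fell (4.45% of all tested genes did). Stmn4 and Pak3 joined the genes that rose and Dcx those that fell. None of the 5 unblocked calls held in each of the 6 fits that left out 1 library, which did not use the block either. Without WT K79, the library with Xist RNA, 2 members were called higher (Gap43 and Ank3, where 4.6% of all tested genes were) and 4 lower (Tuba1a, Pfn2, Dcx and Marcksl1, where 2.84% were), and Limk1 was not called.

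The sizes of change were small and the members were measured closely. The median log2 fold change of the 49 members was 0.01 and that of all tested genes -0.01, and the median absolute change was 0.09 for the members and 0.12 for all tested genes. For 43 of the 44 members not called, the 95% interval of the fold change lay within 1.5-fold in either direction, the exception being Tuba1b. The same held for 47 of the 49 tested members against 66.6% of all tested genes. The median SE was 0.0696 for the members and 0.112 for all tested genes. A mean of at least 100 CPM was reached by 43 members and by 2784 of the 13835 tested genes. These comparisons of size and interval were not matched for level. The libraries of the genotypes did not overlap for 13 members (26.5%, against 23.2% of all tested genes), 8 with KO above and 5 with KO below WT. In bulk libraries fewer cells of a type and less RNA per cell cannot be told apart.

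**Figure D1:**
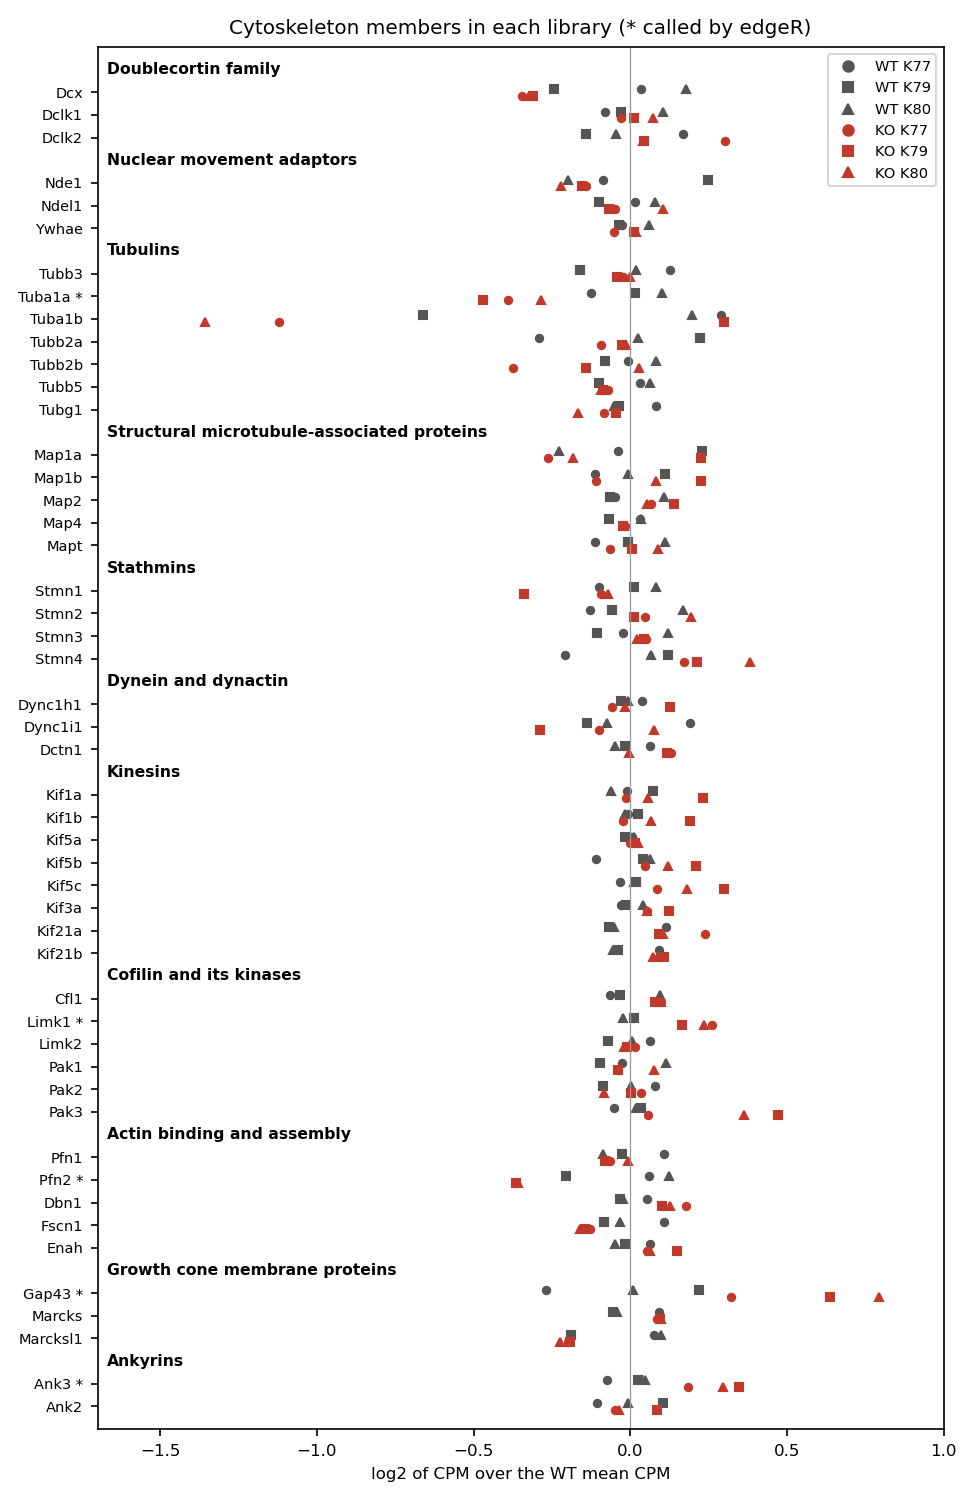
Level of each of the 49 tested members in the 6 libraries, as log2 of its CPM over the WT mean CPM of that gene (horizontal axis), grouped by role; grey symbols are WT and red symbols KO, circles K77, squares K79 and triangles K80, and an asterisk marks the 5 called members. Most genes lie close to 0 in both genotypes, while Gap43 and Ank3 lie to the right and Tuba1a and Pfn2 to the left of WT in each KO library, and Tuba1b scatters in both genotypes.

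**Figure D2:**
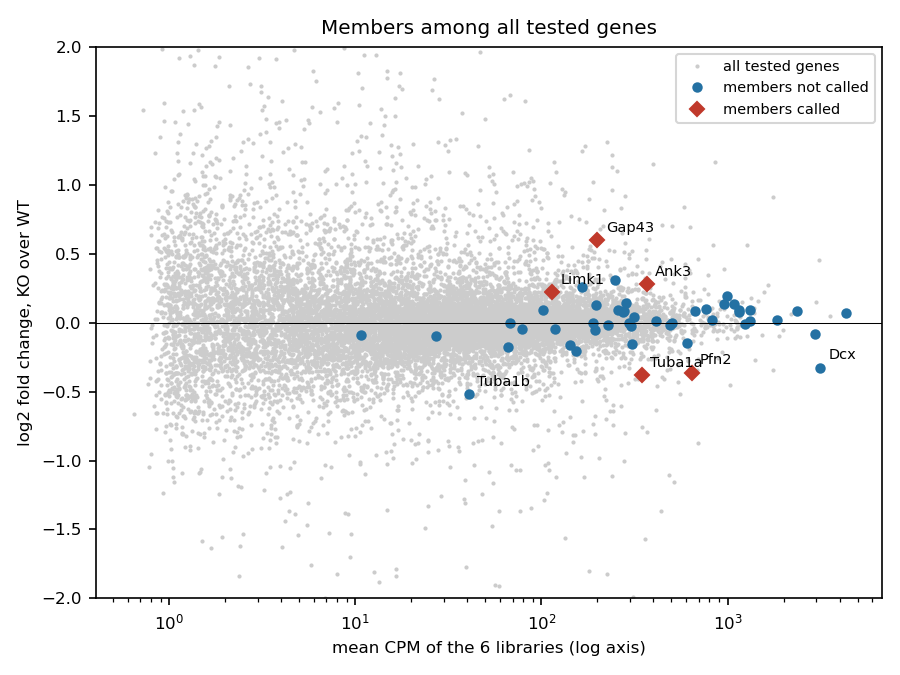
Mean CPM of the 6 libraries (horizontal log axis) against the edgeR log2 fold change of KO over WT for all 13835 tested genes (grey), members not called (blue) and called members (red diamonds); genes beyond 2 on the log2 scale in either direction lie outside the drawn range. The members sit among the abundant genes, and Gap43 at 0.60 and Tuba1b at -0.52 have the largest changes among them.

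Doublecortin, the microtubule-bundling protein of migrating neurons, was among the most abundant members and was lower in each KO library. Dcx stood at 3599, 2969 and 3969 CPM in WT and at 2763, 2832 and 2805 CPM in KO. The WT libraries spread widely, with K79 closest to KO, while the KO libraries lay within a few percent of each other, and the groups did not overlap. The log2 fold change was -0.33 (SE 0.0911, edgeR adjusted p = 0.0671), which did not pass the threshold. It passed with the K number as a block (adjusted p = 0.0388), without WT K79 (-0.44, adjusted p = 0.00276), with DESeq2 (0.00622) and with no filter on low counts (0.00212). It did not pass with limma voom (0.0729), RLE size factors (0.0669) or a filter of 1 CPM in 3 libraries (0.06705). Nor did it pass without any other 1 library (edgeR adjusted p 0.159 to 0.214). For this gene the authors' deposited table gave an adjusted p of 0.0419. Dcx is X-linked, and WT K79 is the library with Xist RNA, whose part in its lower value was not tested. Within numbers the log2 ratio of KO to WT was -0.38 for K77, -0.07 for K79 and -0.50 for K80. The related kinase genes were not called: Dclk1 differed by 0.02 (95% interval -0.12 to 0.16) and Dclk2 by 0.13 (-0.08 to 0.35), with overlapping genotypes in both.

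None of the adaptors that couple dynein to the nucleus and the centrosome was called. Ywhae, which encodes a phosphoprotein-binding adaptor that holds Ndel1 in its phosphorylated state, stood at 1222, 1216 and 1299 CPM in WT and 1202, 1256 and 1262 CPM in KO. Its log2 fold change was -0.01 (SE 0.0546, edgeR adjusted p = 0.971). Nde1, a dynein partner also active in dividing progenitors, stood at 65.6, 82.8 and 60.9 CPM in WT and 63.3, 62.7 and 59.8 CPM in KO (-0.17, 95% interval -0.42 to 0.07, SE 0.108, adjusted p = 0.461). The higher WT mean of Nde1 rested on K79, without which the log2 fold change was -0.03 (edgeR adjusted p = 0.880). WT K79 was also the WT library with the highest Mki67, a gene of cycling cells (563 CPM against 277 and 382 CPM). So it was for the other cycling-cell genes counted below except Pcna (11.2, 9.79 and 9.68 CPM). Mcm6 was nearly level across WT (130, 131 and 131 CPM). In KO, Mki67 was highest in K79 too (414 CPM against 313 and 291 CPM), where Nde1 stood at 62.7 CPM. The part of cycling cells in the Nde1 values was not tested. Ndel1, the relative of Nde1, lay between 63.1 and 72.8 CPM in all 6 libraries.

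Among the tubulins, the building blocks of microtubules, Tuba1a fell and the abundant beta-tubulin genes did not pass the test. Tuba1a, the main alpha-tubulin gene of young neurons, stood at 358.5, 395.5 and 419.5 CPM in WT and at 298, 283 and 321 CPM in KO. Each KO library lay below each WT library. The fall of 23.1% (log2 fold change -0.38, SE 0.0746, edgeR adjusted p = 0.0146) was seen within each number (-0.26, -0.48 and -0.38) and lost its call without KO K79 (-0.34, adjusted p = 0.0749). The call was kept with the block (edgeR adjusted p = 0.00248) and with DESeq2 (0.000174), and the authors' deposited table gave 0.000637. The fall rests on the reads of the transcript that the counting gave to this gene, 77.7% of whose 36-base windows occur in other genes too.

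Tuba1b, its near-identical neighbour in sequence that dividing cells also use, was the least repeatable member. It stood at 58.8, 30.4 and 55.1 CPM in WT and 22.1, 59.2 and 18.8 CPM in KO, so that the K79 libraries of both genotypes went against the other 2 numbers. The log2 ratio of KO to WT was -1.41 in K77, 0.96 in K79 and -1.55 in K80, and the fold change over all libraries was -0.52 with a 95% interval of -1.39 to 0.35 (edgeR adjusted p = 0.554). Without KO K79 it was -1.24 (adjusted p = 0.0418), and the authors' deposited table, whose test differs, listed the gene as lower at an adjusted p of 0.00104. Tuba1c had 3 to 13 counts per library, under the filter, and was not tested. As a share of the counts of the 3 genes, Tuba1a took 85.8% (Wilson 95% interval 84.6 to 86.8%), 92.7% (91.9 to 93.4%) and 88.2% (87.2 to 89.0%) in WT. In KO it took 92.9% (91.8 to 93.8%), 82.6% (81.3 to 83.8%) and 94.4% (93.6 to 95.1%). The mean share was 88.9 ± 3.52% in WT and 1.07 points higher in KO, with an SD of 6.41 points there (exact two-sided permutation p = 0.8, where 3 against 3 cannot go below 0.1), a test that could not pass the threshold whatever the values. The share was higher in KO in K77 and K80 and lower in K79. These intervals cover counting error only.

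The beta-tubulin genes gave tighter values. Tubb5, the most abundant tubulin, stood at 3092, 2823 and 3162 CPM in WT and 2881, 2848 and 2833 CPM in KO (-0.08, SE 0.0568, edgeR adjusted p = 0.502). The neuronal isotype Tubb3 differed by -0.02 (95% interval -0.19 to 0.14). For Tubb2a the difference was -0.04 (-0.29 to 0.20) and for Tubb2b -0.15 (-0.36 to 0.06). Tubg1, which encodes the gamma-tubulin that seeds new microtubules, lay between 24.9 and 29.7 CPM in all libraries. All 7 tubulins tested had a fold change under 0, where 48.5% of all tested genes lay above 0. Of the 7, 1 was called (Tuba1a, lower), where 2.62% of all tested genes were called lower.

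**Figure D3:**
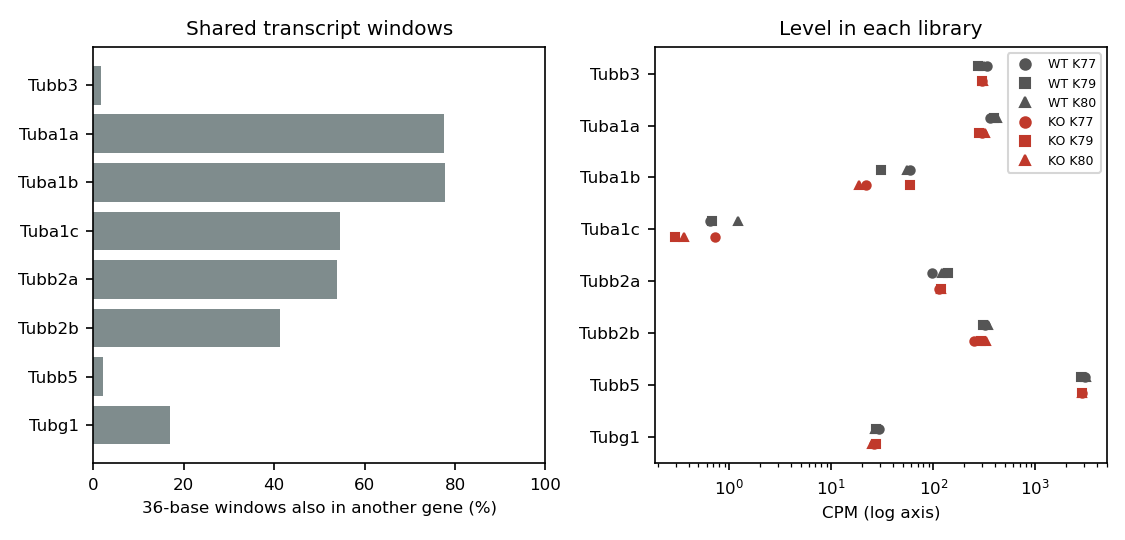
Left, share in percent of the 36-base windows of each tubulin member's GENCODE M21 transcripts that also occur in transcripts of another gene (bars from 0). Right, CPM of the same genes in each library on a log axis, WT grey and KO red: Tuba1b, at 77.8% shared windows, spreads from 18.8 to 59.2 CPM, while Tubb5, at 2.27%, spreads from 2823 to 3162 CPM.

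The structural microtubule-associated proteins were abundant, and none was called. Map1b, which binds axonal microtubules in growing neurons, stood at 3922, 4571 and 4218 CPM in WT and 3930, 4952 and 4485 CPM in KO (0.07, SE 0.0868, edgeR adjusted p = 0.734). The differences between numbers were larger than those between genotypes, K79 being the highest in both. Map2, a protein of the cell body and dendrites, stood at 2200, 2177 and 2456 CPM in WT and 2382, 2510 and 2366 CPM in KO (0.09, SE 0.0618, adjusted p = 0.529). The other 3 genes of this group, Mapt (tau), Map4 and Map1a, differed by 0.01, -0.02 and -0.06 (edgeR adjusted p 0.886 to 0.965).

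Stathmins bind free tubulin and promote disassembly, and none of the 4 genes was called without the block. Stmn4, a neuronal stathmin, stood at 130.5, 163.9 and 157.8 CPM in WT and 169.8, 174.8 and 196.4 CPM in KO. The KO libraries were all higher, with a narrow gap between the highest WT and the lowest KO library. The difference of 0.26 on the log2 scale (SE 0.0899, edgeR adjusted p = 0.143) passed with the K number as a block (adjusted p = 0.0292). Stmn2, the most abundant of the 4 in CPM, stood at 591, 620 and 726 CPM in WT and 667, 650 and 739 CPM in KO (0.09, SE 0.0844, adjusted p = 0.663). Stmn3 differed by 0.04 and Stmn1, the member that dividing cells share, by -0.16 (95% interval -0.34 to 0.02). Of 10 cycling-cell genes 2 were called lower (Ccna2 and Mcm6) and 0 higher, or 6 lower with the K number as a block, where 2.62% and 4.45% of all tested genes were called lower. All 10 had fold changes under 0, with a summed level of 1280 to 1740 CPM in WT and 990 to 1280 CPM in KO, and their part in the values of Stmn1, Tuba1b and Nde1 was not tested.

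No motor gene among the members was called. The dynein heavy chain gene Dync1h1 stood at 1880, 1796 and 1826 CPM in WT and 1760, 2002 and 1811 CPM in KO (0.02, SE 0.0614, edgeR adjusted p = 0.916). Its intermediate chain gene Dync1i1 was the lowest tested member, at 9.08 to 12.7 CPM, and its difference of -0.09 (SE 0.154, adjusted p = 0.823) was less certain than most. Dctn1, the large subunit of the dynactin complex, differed by 0.08. The 8 kinesin genes, which carry vesicles and organelles outward along axons, all had fold changes above 0, from 0.01 for Kif5a to 0.19 for Kif5c, where 48.5% of all tested genes lay above 0. None of the 8 was called by edgeR and 1 had an unadjusted p under 0.05. Neither DESeq2 nor limma voom called a kinesin member. Of 16 further genes of transport kinesins and their light chains, 10 lay above and 6 below 0, with a median of 0.02. Of these 16 genes 0 were called higher and 1 lower, where 3.64% and 2.62% of all tested genes were. The 1 called lower was Kif2a, a depolymerising kinesin, given below with the other lists.

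Kif5c, a conventional kinesin heavy chain of neurons, stood at 906, 939 and 935 CPM in WT and 984, 1141 and 1051 CPM in KO. The genotypes did not overlap, and the difference of 0.19 (SE 0.0641, edgeR adjusted p = 0.128, or 0.0603 with the block) stayed short of the threshold. Kif1b was at 1113, 1136 and 1106 CPM in WT and 1100, 1275 and 1171 CPM in KO, with the K77 library of KO just below all WT libraries and the other 2 above them (0.08, SE 0.0634, adjusted p = 0.584). Kif21b, of about the same CPM, stood at 1185, 1082 and 1072 CPM in WT and 1187, 1200 and 1169 CPM in KO, and the WT library K77 overlapped KO (0.09, SE 0.0578, adjusted p = 0.469). Kif3a, part of the heterotrimeric kinesin of cilia and axons, did not overlap either, but by 276 against 278 CPM at the nearest libraries (0.08, adjusted p = 0.53).

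Along the pathway that restrains cofilin, Limk1 rose by a small and fragile amount. Limk1, whose product phosphorylates and inactivates cofilin, stood at 106.4, 106.5 and 104.0 CPM in WT and at 127, 119 and 124 CPM in KO. The groups were well apart and each was tight. The rise of 16.5% (log2 fold change 0.22, SE 0.0562, edgeR adjusted p = 0.0472) lay just under the threshold and lost its call without any 1 library (adjusted p 0.0711 to 0.184). The call was also lost with no filter on low counts (edgeR adjusted p = 0.0678), with DESeq2 (0.0967) and with limma voom (0.0532). It was kept with the block (edgeR adjusted p = 0.0311). For Limk1 the authors' deposited table gave an adjusted p of 0.28. Its relative Limk2 differed by -0.01 (95% interval -0.13 to 0.12). Pak3, a neuronal kinase acting upstream of Limk1, stood at 215, 228 and 226 CPM in WT and 232, 309 and 287 CPM in KO. The K77 pair was close and the other 2 KO libraries stood higher (0.31, SE 0.0946, adjusted p = 0.0975, or 0.0193 with the block, 0.0264 by DESeq2 and 0.00922 in the authors' deposited table). Pak3 is X-linked too, and its difference was 0.32 without WT K79 (edgeR adjusted p = 0.124) and 0.42 without KO K77 (adjusted p = 0.00888). Pak1, the most abundant gene of this group in CPM, stood at 290.4, 276.1 and 320.0 CPM in WT and 288, 287 and 312 CPM in KO (0.00, SE 0.0696, adjusted p = 0.998). Cofilin itself (Cfl1, 0.09) and Pak2 (-0.02) were not called.

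Of 5 genes that bind and assemble actin, 1 fell and 0 rose, where 2.62% of all tested genes fell and 3.64% rose. Pfn2, the neuronal profilin, stood at 753, 626 and 786 CPM in WT and at 560.1, 560.5 and 562.3 CPM in KO. The KO libraries were almost equal, and the WT library K79 lay nearest to them. The gene fell by 22.2% (log2 fold change -0.36, SE 0.081, edgeR adjusted p = 0.0275), a call kept without WT K79 (-0.46, adjusted p = 0.00106) and lost without any other 1 library (adjusted p 0.0695 to 0.117). The call was kept with the block (edgeR adjusted p = 0.00902) and with DESeq2 (0.000534), and the authors' deposited table gave 0.00146. The widely expressed profilin gene Pfn1 differed by -0.05 (95% interval -0.21 to 0.11). Dbn1, which encodes the filament-binding protein drebrin, stood at 1079, 1016 and 1023 CPM in WT and 1174, 1114 and 1134 CPM in KO, without overlap (0.13, SE 0.0541, adjusted p = 0.214). Fscn1, whose product bundles the actin of filopodia, lay on the other side, with 601 to 686 CPM in WT and 569 to 582 CPM in KO (-0.14, adjusted p = 0.252). Enah, an elongation factor at filament ends, differed by 0.09.

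Gap43 showed the largest change of all called members. It encodes a protein kinase C substrate of axonal growth cones, and stood at 132, 185 and 160.0 CPM in WT and at 199, 248 and 275.5 CPM in KO. The lowest KO library lay just above the highest WT library. The rise of 51.4% (log2 fold change 0.60, SE 0.134, edgeR adjusted p = 0.0281, or 0.000621 with the block) appeared within each number (0.59, 0.42 and 0.78). Leaving out KO K80, KO K79, WT K80 or WT K77 ended the call (adjusted p at most 0.133, with a log2 fold change of 0.48 to 0.60). The call was kept with DESeq2 (adjusted p = 5.01e-05), and the authors' deposited table gave 3.85e-09. None of the 36-base windows of Gap43 occurred in another gene. Marcks, a related membrane-bound substrate that binds actin, stood at 1364, 1233 and 1242 CPM in WT and 1359, 1367 and 1370 CPM in KO (0.09, SE 0.0574, adjusted p = 0.45). Marcksl1, its smaller relative, lay at 172, 144 and 175 CPM in WT and 142.5, 143.1 and 140.2 CPM in KO (-0.21, adjusted p = 0.172), and passed without WT K79 (-0.29, adjusted p = 0.0136).

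Of the 2 ankyrin genes, 1 rose, where 3.64% of all tested genes did. Ank3, which encodes ankyrin-G, the organiser of the axon initial segment, stood at 316, 338 and 344 CPM in WT and at 378, 423 and 409 CPM in KO. All 3 KO libraries lay above WT, by similar amounts within each number (0.26, 0.32 and 0.25). The rise of 21.2% (log2 fold change 0.28, SE 0.0639, edgeR adjusted p = 0.0307) lost its call without WT K77 (adjusted p = 0.11), KO K79 (0.138) or KO K80 (0.144). The call was kept with the block (edgeR adjusted p = 0.00619) and with DESeq2 (0.0044), and the authors' deposited table gave 0.0341. Ank2, the broadly distributed ankyrin-B, stood at 465, 539 and 498.5 CPM in WT and 484, 531 and 488 CPM in KO (0.00, SE 0.0695, adjusted p = 1.00), and the difference between the 2 changes was not tested.

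**Figure D4:**
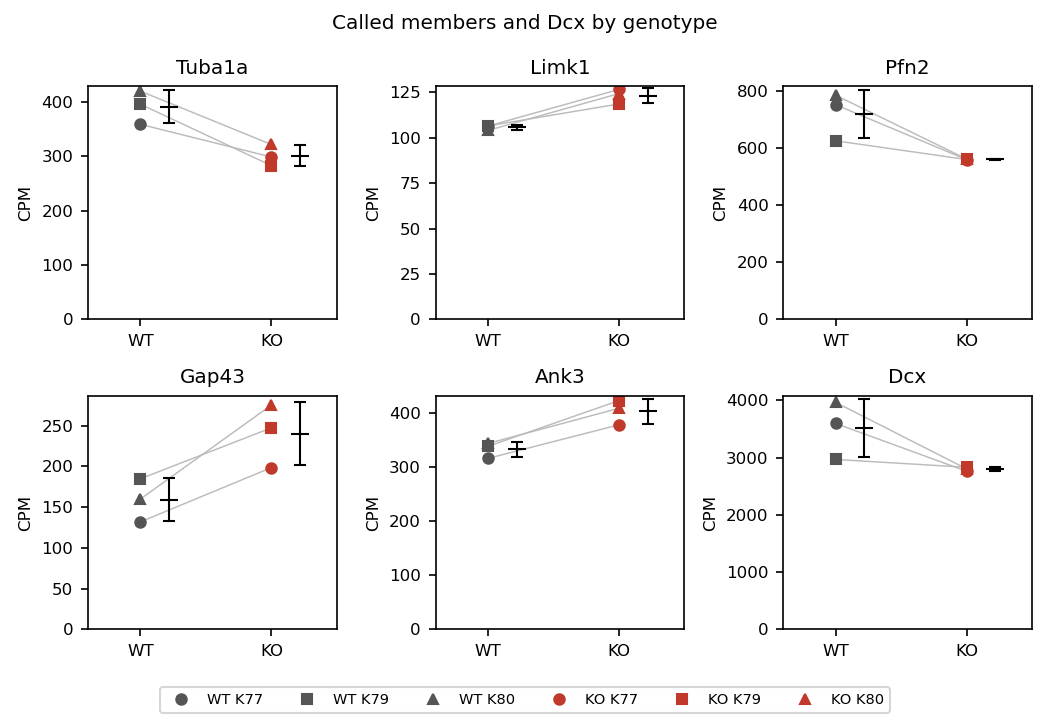
CPM (vertical axes from 0) of the 5 called members and Dcx in WT (grey) and KO (red), with grey lines joining libraries that share a K number and black bars giving the mean ± SD of n = 3 libraries. KO lies below WT for Tuba1a, Pfn2 and Dcx and above WT for Limk1, Gap43 and Ank3, and WT K79 is the WT library nearest to KO for Pfn2 and Dcx.

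**Figure D5:**
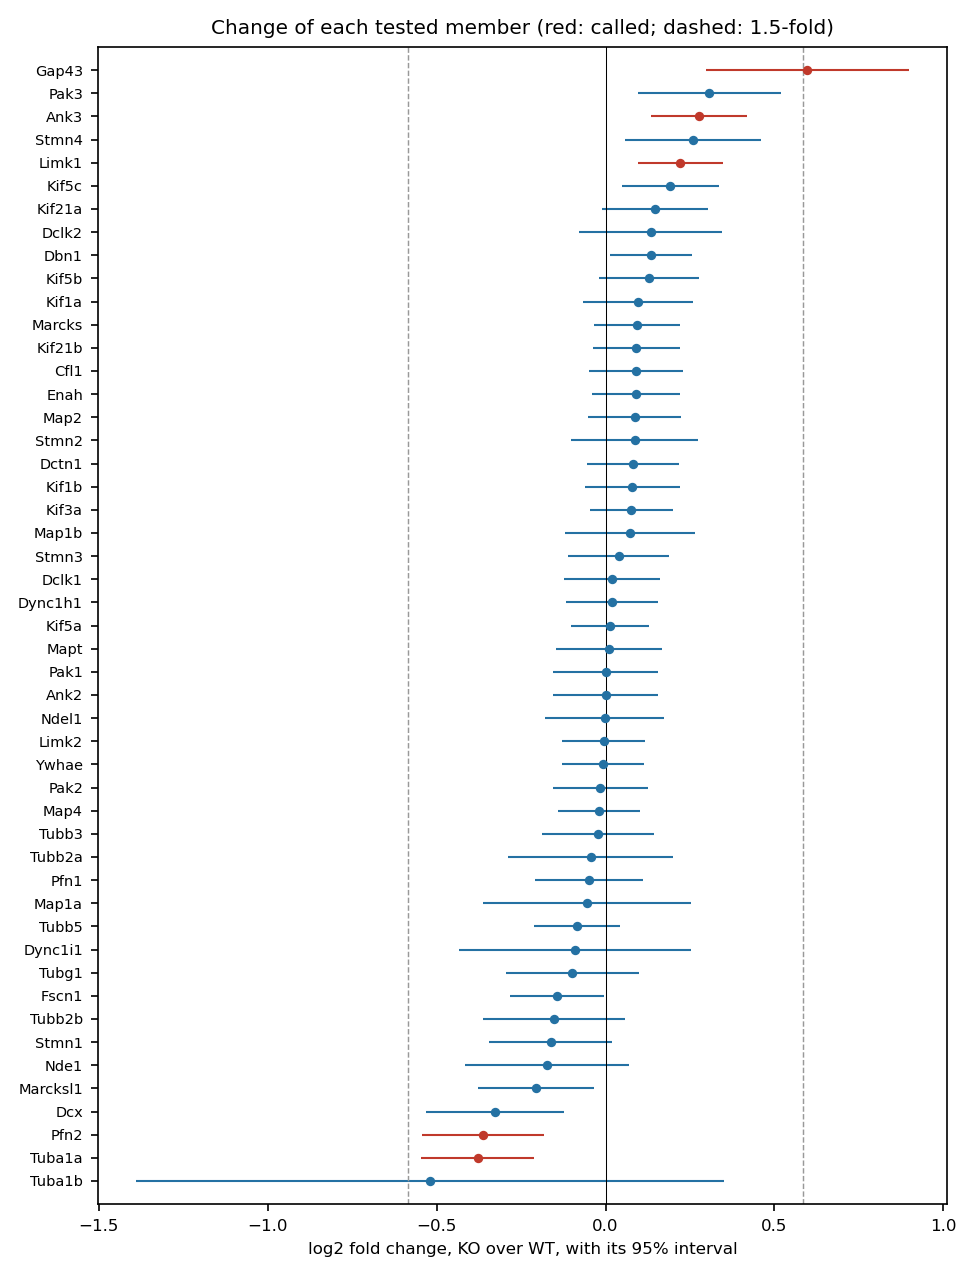
Log2 fold change of KO over WT (horizontal axis) with its 95% interval for the 49 tested members, ordered by size, with called members in red and dashed lines at 1.5-fold in either direction. Only Tuba1b and the called member Gap43 have intervals that reach past a dashed line.

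Compared per length, the members span a wide range of levels. The length is that of all annotated exons of a gene together, 34838 bases for Ank3 and 1523 for Gap43. Which transcripts the cells used was not measured, so a gene with unused exons stands too low on this scale. In CPM per kilobase of GENCODE M21 exons, Tubb5 was highest in WT at 909 ± 53.8, followed by Ywhae at 485 ± 18.0 and Marcks at 316 ± 18.1. Next came Dcx (278 ± 40.0), Stmn3 (272 ± 22.0) and Map1b (267 ± 20.5), whose means lay within their spread. Gap43 stood at 104 ± 17.4 in WT and 158 ± 25.6 in KO on this scale, Ank3 at 9.55 ± 0.42 and 11.6 ± 0.658. The lowest was Dync1i1 (3.11 ± 0.384 in WT). Tuba1a at 217 ± 17.0, Stmn1 at 77.9 ± 4.97 and Tuba1c at 0.373 ± 0.144 in WT, like the other members with uncertain levels named above, are not placed in this order, since part of their length was shared with other genes.

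The rest of the cytoskeleton, 223 other genes in 13 lists that include tubulin folding and modification, further microtubule and actin proteins, motors, spectrins and septins, gave a similar picture. Among the 221 tested genes 8 rose and 4 fell, the other 209 were not called, with a median log2 fold change of 0.00. The share called was 5.43%, against 6.27% of all tested genes. With the K number as a block 17 rose and 14 fell, which is 14.0% against 10.6%. Among 29 further microtubule-associated proteins 3 rose and 0 fell, where 3.64% of all tested genes rose and 2.62% fell. Map6, a stabiliser of cold-resistant microtubules (in the table as Mtap6), stood at 152, 194 and 131 CPM in WT and at 228.6, 280.4 and 255.7 CPM in KO (0.68, SE 0.128, edgeR adjusted p = 0.0112). Tppp, a tubulin polymerisation promoter, rose by 0.52 (adjusted p = 0.00512) and the plus-end protein gene Mapre3 by 0.28. The call of Map6 was lost in 3 fits, those leaving out KO K79, KO K80 or WT K77 (adjusted p at most 0.0628), and that of Mapre3 in each such fit except that without WT K79 (at most 0.0985).

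Membrane skeleton genes were the other list with more than 1 call. Of 12 spectrin, adducin and related genes 2 rose and 0 fell, where 3.64% of all tested genes rose and 2.62% fell. The 2 were Epb41l3 (0.46, edgeR adjusted p = 0.00672) and the adducin gene Add2 (0.23, adjusted p = 0.0308). Gpm6b, a membrane glycoprotein of growing neurites and glia, fell by 0.33 (adjusted p = 0.00639). Tppp, Epb41l3 and Gpm6b kept their calls without any 1 library. Add2 lost its call without any library but WT K80 (adjusted p up to 0.135). Single members of other lists were called as well. The glutamylation-complex gene Ttll1 rose by 0.32 (lost without any library but WT K80, adjusted p up to 0.138), the dynein adaptor gene Hook1 by 0.38 (lost in the fits without a KO library or without WT K77, at most 0.122) and the actin nucleator gene Cobl by 0.74 (lost in each fit except that lacking WT K79, at most 0.152). The depolymerising kinesin gene Kif2a fell by 0.48 (lost in the same 4 fits, adjusted p at most 0.14) and the septin gene Sept8 by 0.32 (lost in the fits without KO K80, KO K79, WT K80 or WT K77, at most 0.17).

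Kinesins of the mitotic spindle carry chromosomes and slide spindle microtubules in dividing cells. Of 11 tested, 1 was called lower, where 2.62% of all tested genes were. All 11 had fold changes below 0, with a median of -0.29, where 48.5% of all tested genes lay above 0. Kif15, which helps hold the bipolar spindle, stood at 73.8, 93.8 and 73.4 CPM in WT and at 60.6, 60.2 and 52.4 CPM in KO (-0.48, SE 0.107, edgeR adjusted p = 0.0278), a call that ended in the fits lacking KO K80 or KO K79 (adjusted p at most 0.138). With the K number as a block 5 of the 11 fell, where 4.45% of all tested genes did. The 10 cycling-cell genes given above also had fold changes under 0, and their part in these values was not tested. Of 6 genes of oligodendrocyte precursors 5 were called lower, where 2.62% of all tested genes were. The 6 genes summed to 126 to 148 CPM in WT and 50.9 to 59.3 CPM in KO. Of 8 genes of postmitotic neurons 1 was called (Rbfox3, lower), at 3360 to 4050 CPM in WT and 3310 to 3430 CPM in KO in sum. Their part in the changes of the members was not tested.

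Zeb proteins bind DNA at sites containing CACCTG, and the promoters of the members were searched for these letters on both strands. The RefSeq promoter table (build GRCm38.p6) held 37 of the 50 members in 52 windows of 250 bases before a start, and 15 of these (28.8%) contained the motif, against 17.2% of all 32851 windows. Of the 5 called members the table held Tuba1a, Pfn2 and Limk1, and only Limk1 had a match, in 1 of its 2 windows, 176 bases before a start on the minus strand (chr5:134678249-134678498). That window is shown with the motif in capitals:
Limk1: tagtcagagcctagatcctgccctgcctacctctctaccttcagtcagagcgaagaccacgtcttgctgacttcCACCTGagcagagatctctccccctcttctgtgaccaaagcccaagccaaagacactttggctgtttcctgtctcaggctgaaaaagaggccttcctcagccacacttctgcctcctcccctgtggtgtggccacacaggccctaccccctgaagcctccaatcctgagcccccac
A match describes letters in a window and no binding was measured here.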

How the data were processed

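Poly-A RNA from 100 ng of total RNA per library was amplified by 15 PCR cycles and read in single reads of 36 cycles, per the labels' protocols. Build mm9 and the tools DESeq 1.2.2, TopHat 1.2.0 and HTSeq 0.5.3p3 are listed in the submitters' processing notes without roles. The sources used here do not say which annotation was used, whether strand was used or how reads with several places were counted. The deposited files hold whole read counts per gene, and the authors' joint table matched them in each of its 36291 rows. Entries without a gene name (19.75 to 21.77% unassigned and 1.94 to 1.99% ambiguous) stayed out. The authors' deposited table gave log2 fold changes and adjusted p-values, per the file headers. It names its groups A and B, and was read as KO over WT because the signs of the 5 called members match.

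Counts were tested in R 4.3.3 with edgeR 4.0.16 (TMM, filterByExpr with a minimum count of 10, quasi-likelihood test, Benjamini-Hochberg adjustment over 13835 genes, threshold 0.05). The SE is the log2 fold change over the square root of F. Alternatives were RLE size factors, no filter, 1 CPM in 3 libraries, DESeq2 1.42.0, limma 3.58.1 voom, other thresholds, the K number as a block and leaving out each library in turn. Libraries sharing a K number deviated together (correlations 0.274, 0.216 and 0.196, each over 0.1), so the number was taken to pair them. The reported fit leaves the number out, so its SEs, intervals and calls do not use this pairing. The fit with the block does, and its calls are given beside those of the reported fit. Whether each library is a different embryo is unsaid, although WT K79 differs in sex from the other libraries by its Xist and Y-linked counts. The p-values therefore measure only how far these libraries spread, which may be technical. The model was tested on simulated data. Members and lists were chosen with earlier results of these data known. Full values are given for called members and, per role group, for the most abundant and the most changed member, and for other lists up to 3 called genes in each direction. Sequences are from GENCODE M21 transcripts and the RefSeq promoter table, both of a later build than mm9. Protein sequences were not used here.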

Additional observations from a re-analysis of the deposited data

How the results depend on the processing

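No called member changed sign under any alternative, and RLE size factors and a filter of 1 CPM in 3 libraries changed no member's call. Members called higher, 3 in the reported fit, numbered 5 with the K number as a replicate block, 0 at an adjusted p under 0.01 and 0 to 3 with 1 library left out (0 in the fits lacking KO K79, KO K80 or WT K77). Members called lower, 2 in the reported fit, numbered 0 at an adjusted p under 0.01 and 1 to 4 with 1 library left out (4 without WT K79). The other cytoskeleton genes, 8 higher and 4 lower, numbered 14 and 11 with no filter on low counts, 17 and 14 with the block, 2 and 1 at 0.01, 13 and 9 at 0.1, and 2 to 9 and 1 to 5 with 1 library left out. All tested genes, 504 higher and 363 lower, numbered 848 and 615 with the block, 254 and 173 at 0.01, 546 lower with no filter, 557 lower at 0.1, and 270 to 645 and 175 to 399 with 1 library left out. The causes of these differences were not tested, beyond the smaller number of libraries when 1 is left out. The Tuba1a share differed by -1.14 to 4.75 percentage points between genotypes with 1 library left out, against 1.07. With the block no call of a member was lost, and Dcx, Stmn4 and Pak3 were gained. Depth limits Tuba1c, with 3 to 13 counts per library, and sequence shared between copies limits the alpha-tubulins.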
